A study of Mus musculus with 17 samples.

Results

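The transcripts of the mouse mitochondrial genome and a list of nuclear genes that hold copies of it were followed gene by gene through 17 RNA libraries of skin stem cells. The set holds 25 of the 35674 gene symbols in the deposited tables. All 13 symbols that start with mt- were taken, and each is a protein-coding gene of the mitochondrial genome. Each of these gene entries is called an mRNA below, although not all need be separate molecules. On the same strand mt-Atp8 and mt-Atp6 overlap by 43 bases, and mt-Nd4l and mt-Nd4 by 7. The other 12 were listed by name as nuclear copies (Gm29216, Gm20594, Gm10925, Gm28438, Gm28439, Gm28661, Gm28437, Gm10222, Gm10221, Gm13340, Gm13341 and Gm8394). The members were chosen by symbol with their TPM in these libraries already known, so the levels, ratios and fold changes of the 25 members are descriptions. Where calls from the fit over all genes are counted for members, they stand beside the percentage of all genes called, and nothing is read from them. The 2 ribosomal RNA genes and 22 transfer RNA genes of the mitochondrial genome have no row in the tables and were not analysed here.

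Stem cells had been purified from skin by flow cytometry, and every mouse was wild type. HFSCs, the hair follicle stem cells, rest in the follicle bulge and rebuild the follicle, and epidermal stem cells (EpiSCs) renew the epidermis between follicles. EpiSCs came from mice fed ad libitum (2 libraries), and 2 further libraries were of HFSCs at 2nd telogen, a resting phase of the hair cycle. The fasting series held HFSCs with food ad libitum, after 24 h without food and after 48 h without food (3 libraries each). The long-term pair held HFSCs after 6 months of alternate-day fasting, with cells taken on a day that followed fasting, and HFSCs after 6 months of food ad libitum (2 libraries each). The treatment field of the alternate-day fasted libraries reads ad libitum, and their titles were followed. The labels give no age or sex, no sorting markers and no hair cycle stage for the short-term ad libitum mice. In the deposited telogen table the columns of the ad libitum libraries carry the prefix ana1, which the labels do not explain. The labels also do not say that libraries of a group came from separate mice. Spread between libraries may therefore be technical.

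Mitochondria keep a small circular genome of their own. It is transcribed from both strands into long precursors, which are cut at the transfer RNAs that lie between most of the genes and then polyadenylated. Its proteins are core subunits of the respiratory chain: mt-Nd1, mt-Nd2, mt-Nd3, mt-Nd4, mt-Nd4l, mt-Nd5 and mt-Nd6 belong to complex I, mt-Cytb to complex III, mt-Co1, mt-Co2 and mt-Co3 to complex IV, and mt-Atp6 and mt-Atp8 to the ATP synthase, complex V. All other subunits of these complexes are encoded in the nucleus. Stretches of mitochondrial DNA have also been inserted into nuclear chromosomes during evolution, and reads from such an insertion can look the same as reads from the mitochondrial genome.

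Values are TPM, a measure of transcript abundance per length that sums to 1e+06 in each library, and between 10422 and 12087 genes reached 1 TPM. TPM keeps no read count, so the depth behind each value is unknown. The HFSC marker set was detected in each HFSC group (11 of 11 genes with a group mean of at least 1 TPM), while 4 of the 11 were under 1 TPM in EpiSCs and the bulge marker Lgr5 was listed at 0 there. The summed EpiSC markers ranged between 42600 and 45600 TPM in EpiSCs and between 5170 and 15700 TPM over the HFSC groups. The summed HFSC markers, at 34200 to 34900 TPM in EpiSCs, lay within their range over the HFSC groups (21500 to 48500 TPM). Krt15 alone had 33900 and 34400 TPM of these in EpiSCs, whereas the bulge marker Cd34 had 0.109 and 0.497 TPM in EpiSCs, against 349 to 621 TPM in ad libitum HFSCs. Marker sums of immune cells were 55.6 to 97.0 TPM in long-term fasted, 115 to 167 TPM in long-term fed and 38.8 to 41.0 TPM in telogen HFSCs, against 3.93 to 9.38 TPM in ad libitum HFSCs. Of these 6 markers, Cd3e was at 0 in each of these 4 groups, and 2, 3, 4 and 4 averaged under 1 TPM in the order given. Fibroblast markers (6 genes) summed to 26.7 to 38.2 TPM, 31.7 to 75.7 TPM and 37.8 to 42.6 TPM in the same 3 groups, against 10.8 to 22.7 TPM in ad libitum HFSCs. The next sums keep that order of 3 groups, each set against ad libitum HFSCs. Melanocyte markers had 23.4 to 93.6, 13.7 to 33.0 and 6.12 to 12.6 TPM, against 8.8 to 15.7 TPM. Sebocyte markers had 40.1 to 64.9, 11.7 to 28.1 and 16.3 to 24.5 TPM, against 13.9 to 28.9 TPM. Erythroid markers had 6.14 to 40.3, 11.3 to 11.5 and 36.9 to 83.5 TPM, against 3.14 to 16.4 TPM. The part of these cell types in the results was not tested.

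The list of copies was first compared with the mitochondrial genes by sequence, using the GENCODE M21 transcripts and coordinates of GRCm38 (mm10). Of the 12, 7 lie side by side on the minus strand of chromosome 1, chr1:24611535-24616197, a stretch of 4663 bases. Read along that strand they keep the order of the mitochondrial genome: Gm29216 (mt-Co1), Gm28661 (mt-Co2), Gm10925 (mt-Atp6), Gm28437 (mt-Co3), Gm28438 (mt-Nd3), Gm10222 (mt-Nd4l) and Gm28439 (mt-Nd4). Each is annotated as an unprocessed pseudogene. Between the copies of mt-Co2 and mt-Atp6 lie 233 bases without an annotated gene, where the mitochondrial genome has 230 bases that include most of mt-Atp8. The annotation thus gives mt-Atp8 no counterpart in the block.

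Gm28661, Gm10925, Gm28437, Gm10222 and Gm28439 are identical to a part of their mitochondrial parent over their whole length, and all of their 31-base words occur in it. The ends of 2 of these pairs are shown because the annotation ends the copy before the last bases of the parent. Sequence beyond the annotated copies was not compared. The capitals mark the last bases of the mitochondrial gene, which the annotated copy lacks. The mitochondrial ends are chrM:8568-8607 and chrM:7657-7696 on the plus strand, and those of the copies are chr1:24613974-24614010 and chr1:24614885-24614921 on the minus strand.
mt-Atp6: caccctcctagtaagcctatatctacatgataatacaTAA
Gm10925: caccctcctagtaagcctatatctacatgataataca
mt-Co2: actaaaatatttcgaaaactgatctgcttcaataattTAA
Gm28661: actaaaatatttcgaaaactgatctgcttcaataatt

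Gm29216 matches the last 483 bases of mt-Co1 at 99.79% with 1 difference, A1066T. Gm28438 matches mt-Nd3 over 345 bases at 99.71%, also with 1 difference, T3C. Positions are counted from 1 at the 5′ end of the mitochondrial gene. These are the only letters within the aligned stretches that separate copy from parent, and they stand in capitals below. The mt-Co1 stretch is chrM:6373-6413 and that of mt-Nd3 chrM:9459-9481, both on the plus strand, while the copies lie at chr1:24616165-24616197 and chr1:24613097-24613119 on the minus strand.
mt-Co1: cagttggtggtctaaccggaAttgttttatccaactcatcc
Gm29216: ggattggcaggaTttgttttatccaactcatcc
mt-Nd3: atTaacctgtacactgttatctt
Gm28438: atCaacctgtacactgttatctt

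The first 9 bases of Gm29216 lie outside the aligned stretch. On chromosome 2, Gm13340 (chr2:22588103-22589647) is a copy of the whole of mt-Co1 at 97.61% identity, and Gm13341 (chr2:22587291-22587962) matches mt-Co2 at 95.91%. Both are on the minus strand and are annotated as unprocessed pseudogenes. Gm10221 on chromosome 5 and Gm8394 on chromosome 10, both annotated as processed pseudogenes, matched no mitochondrial transcript (BLAST expectation value up to 1e-05). The name copy is therefore not borne out by sequence for these 2 genes.

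Gm20594 (chr6:79817916-79818364, plus strand) is annotated as protein-coding, but 439 aligned bases match the large mitochondrial ribosomal RNA, mt-Rnr2, at 88.38% identity. The match is uneven, as a pair of 60-base windows shows. The first pair, chrM:2102-2161 and chr6:79818283-79818342, holds 0 differences and lies in a run of 65 identical bases.
mt-Rnr2: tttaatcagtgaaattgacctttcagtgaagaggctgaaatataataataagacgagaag
Gm20594: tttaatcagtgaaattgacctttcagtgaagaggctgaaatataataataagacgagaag

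The second pair, chrM:1752-1811 and chr6:79817930-79817989, holds 10 differences, in capitals. Since mt-Rnr2 has no row in the tables, Gm20594 has no mitochondrial parent among the values.
mt-Rnr2: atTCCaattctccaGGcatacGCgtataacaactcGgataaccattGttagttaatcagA
Gm20594: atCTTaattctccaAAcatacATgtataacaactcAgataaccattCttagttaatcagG

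For the 5 copies without an internal difference, the letters of a read inside the copy do not tell it from the parent. The same holds for most of Gm29216 and Gm28438. Of the 31-base words of Gm29216, 449 of 462 occur in mt-Co1, and of those of Gm28438, 312 of 315 occur in mt-Nd3. The division of TPM between copy and parent there rests on the authors' quantification. The values of the chromosome 1 copies and of their parents are uncertain to that extent. Where it matters, the sum of copy and parent is given.

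The most abundant member was mt-Atp8, a short subunit of the ATP synthase (chrM:7766-7969, plus strand, 204 bases). It ranked first of the 13 mitochondrial mRNAs in 17 of 17 libraries and first of all genes in each of the 9 libraries of the fasting series. Its sequence is shown for that rank, and for the capitals at its end, which mark the 43 bases it shares with the start of mt-Atp6.
mt-Atp8: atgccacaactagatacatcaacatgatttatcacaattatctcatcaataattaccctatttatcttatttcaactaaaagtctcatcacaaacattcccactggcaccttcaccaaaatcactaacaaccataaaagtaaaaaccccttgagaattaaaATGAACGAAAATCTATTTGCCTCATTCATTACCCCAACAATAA

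By library, mt-Atp8 had 17370 and 13820 TPM in EpiSCs and 10610 and 10450 TPM in telogen HFSCs. In the fasting series it had 165500, 119000 and 155200 TPM with food ad libitum, 92340, 177900 and 130300 TPM after 24 h, and 63200, 51200 and 31930 TPM after 48 h. In the long-term pair it had 25940 and 14250 TPM with alternate-day fasting, against 20310 and 22870 TPM with food ad libitum. The 48 h libraries were all below the 24 h and ad libitum libraries, the 24 h libraries overlapped the ad libitum range, and the other 4 groups were all below the 48 h range.

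The same order of groups held for the summed mitochondrial mRNAs. They took 3.59% and 2.84% of a library in EpiSCs, 3.50% and 3.42% in telogen HFSCs, 33.9%, 25.4% and 32.7% with food ad libitum, 18.8%, 36.3% and 27.2% after 24 h, and 13.01%, 9.78% and 7.26% after 48 h. Long-term alternate-day fasting gave 3.90% and 2.88%, against 3.66% and 4.10% in long-term fed HFSCs. The 24 h group was the most scattered, with the lowest library below and the highest above all ad libitum libraries. In a bulk sample, fewer cells that are rich in mitochondrial RNA and less of it per cell cannot be told apart, and a share does not tell less mitochondrial RNA from more of other RNA.

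**Figure D1:**
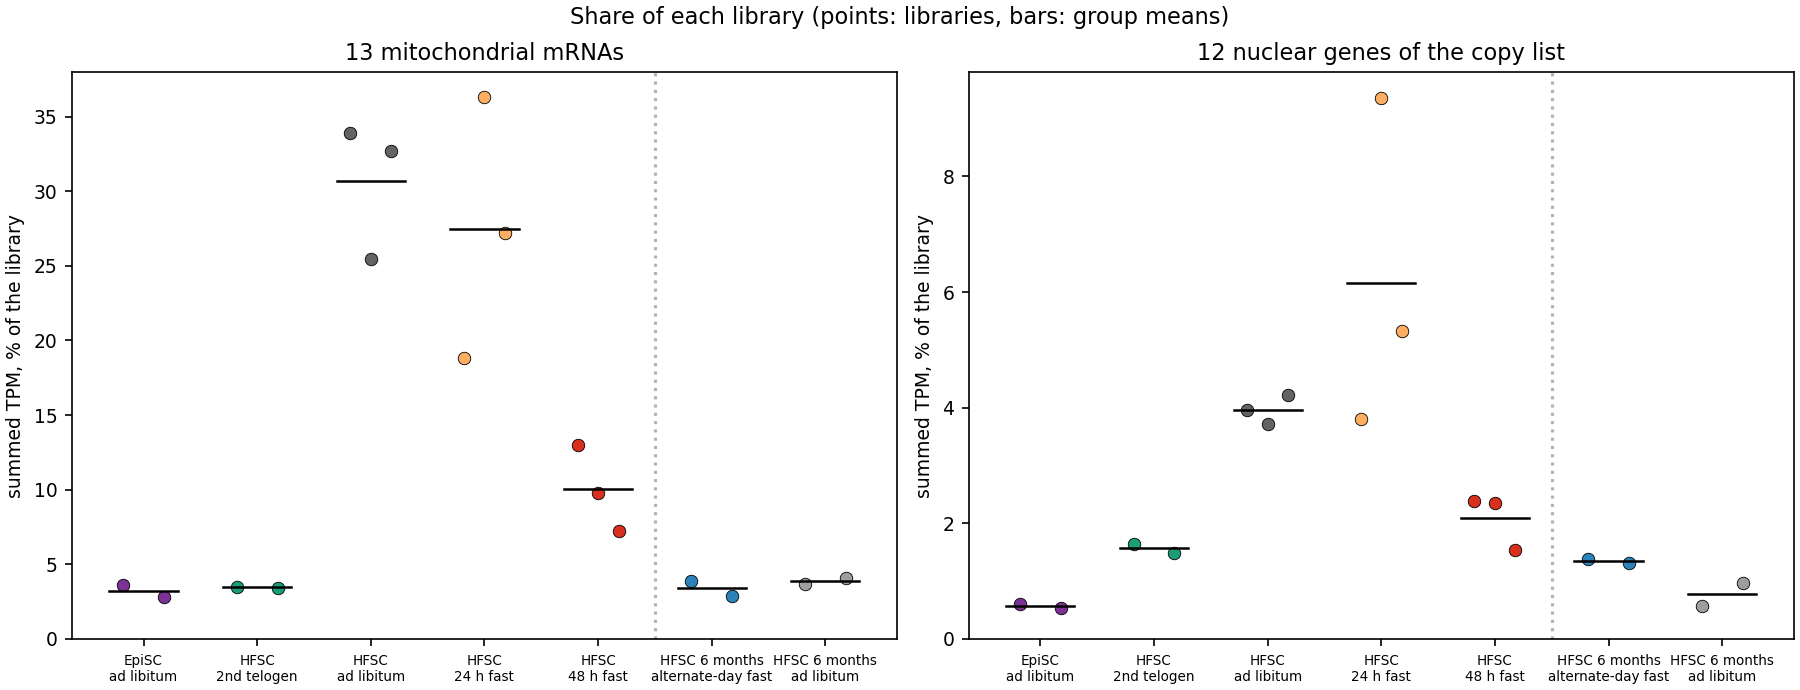
Percent of summed TPM per library (y axes, linear from 0) taken by the 13 mitochondrial mRNAs (left) and by the 12 nuclear genes listed as copies (right), with points for libraries and bars for group means. The mRNA share of the ad libitum and 24 h HFSC libraries lies between 18.8% and 36.3%, that of the 48 h libraries between 7.26% and 13.01%, and that of the other groups between 2.84% and 4.10%.

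Of the top 10 genes of a library, 7 were mitochondrial mRNAs in each ad libitum HFSC library, 6 or 7 after 24 h and 2 or 3 after 48 h. In EpiSCs, telogen HFSCs and the long-term libraries the number was 1 or 2. In these 8 libraries mt-Atp8 ranked between 2 and 9 among all genes.

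Expressed relative to the summed TPM of the genes outside the set, the decline was steeper, since the set itself fills part of the scale. The mitochondrial mRNAs came to 15.4%, 11.1% and 7.97% of the outside TPM after 48 h, against 54.5%, 35.9% and 51.8% with food ad libitum. After 24 h the values were 24.35%, 66.8% and 40.4%. They were 3.75% and 2.94% in EpiSCs. No 48 h or EpiSC library overlapped the ad libitum range.

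At 24 h, 0 of the 17 members that passed the filter of 1 mean TPM were called higher or lower (limma on log2(TPM + 1), adjusted p under 0.05 over 11533 genes). Over all genes tested the percentage called was 3.07%, and 1 of the 17 members, Gm10925, had an unadjusted p under 0.05, as did 17.1% of all genes. The log2 fold changes of the 13 mRNAs had a median of -0.20, with the lowest for mt-Nd3 (-0.55, SE 0.27) and the highest for mt-Co1 (0.10, SE 0.31). mt-Nd3, a small core subunit of complex I, had 767.7, 1003 and 1151 TPM after 24 h, against 1152, 1367 and 1762 TPM with food ad libitum. It was the 1 mRNA whose 24 h libraries lay below the ad libitum range without overlap, by a narrow margin, as 10.1% of all genes did, and 0 lay above it, as 7.77% of all genes did.

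At 48 h, 14 of the 17 members were called lower and 0 higher, beside 1.98% of all genes called lower and 15.3% called either way. The 14 were the 13 mRNAs and Gm20594, and with no filter on low values 7 members were called. mt-Nd4l of complex I was lowest, with 2103, 1310 and 1529 TPM after 48 h against 7269, 6454 and 7526 TPM with food ad libitum (log2 fold change -2.13, SE 0.27). mt-Cytb, the mitochondrial subunit of complex III, followed with 6377, 5001 and 3786 TPM against 23930, 16390 and 21060 TPM (-2.03, SE 0.29). mt-Co1, the catalytic subunit of complex IV, changed least, with 9948, 6891 and 6629 TPM against 21400, 16690 and 20230 TPM (-1.33, SE 0.31). For each of the 13 mRNAs the 48 h libraries lay below the ad libitum range without overlap, as did 7.07% of all genes.

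The remaining mRNAs lay between these at 48 h. Of complex V, mt-Atp6 had 21340, 14760 and 10870 TPM after 48 h against 52990, 38100 and 49270 TPM with food ad libitum (-1.62, SE 0.32). Of complex IV, mt-Co2 averaged 5587 ± 1540 TPM against 16760 ± 2062 TPM (SD, n = 3 each), and mt-Co3 had 11010, 7594 and 7915 TPM against 30670, 25620 and 31340 TPM. Of complex I, mt-Nd1, which lies where the membrane arm meets the matrix arm, averaged 3925 ± 993.8 TPM against 11230 ± 2141 TPM. mt-Nd2 averaged 805.8 ± 229.7 TPM against 2187 ± 263.4 TPM, and mt-Nd4 1174 ± 301.8 TPM against 4006 ± 232.1 TPM. mt-Nd5 averaged 239.9 ± 62.85 TPM against 732.1 ± 69.23 TPM, while mt-Nd6, the only mRNA of the opposite strand, had 310.5, 240.6 and 172.6 TPM against 726.0, 677.5 and 788.7 TPM.

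Relative to the genes outside the set, the fold changes at 48 h ran between -2.56 and -1.76 over the 13 mRNAs. Between 48 h and 24 h the median was -1.44 on the deposited scale, and 2 members, mt-Nd4 and mt-Nd4l, were called lower and 0 higher, beside 0.0173% of genes called lower, 0.026% called higher and 0.0434% called either way. All 13 mRNAs lay below the 24 h range without overlap, as did 1.25% of all genes. No member was called under another scaling or pseudocount or with no filter, or on leaving out any ad libitum library, any 48 h library or 24 h library 2, whereas 15 members were called without 24 h library 1 and 11 without 24 h library 3. The fold changes of both fasting times use the same ad libitum libraries and are not independent.

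In EpiSCs, 17 of 18 members that passed the filter were called lower than in ad libitum HFSCs and 0 higher, beside 9.10% of 11774 genes called lower and 40.6% called either way. The remaining 1, Gm28437, was listed at 0 in ad libitum HFSCs and passed the filter only through EpiSC library 2. All 13 mRNAs lay below the ad libitum range without overlap, as did 16.2% of all genes, and 0 lay above it, as 50.5% did. mt-Nd2 of complex I stood lowest (log2 fold change -3.42, SE 0.18), with 242.2 and 168.2 TPM in EpiSCs against 2114, 1968 and 2479 TPM in ad libitum HFSCs. The mRNAs nearest to HFSC levels were mt-Nd6 (-2.56, SE 0.20), with 152.0 and 99.86 TPM against 726.0, 677.5 and 788.7 TPM, and mt-Nd3 (-2.60, SE 0.25), with 296.5 and 179.6 TPM against 1152, 1367 and 1762 TPM. Gm20594 was lower than any mRNA in this comparison (-3.94, SE 0.16), with 513.9 and 410.6 TPM against 6597, 6513 and 8188 TPM.

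In telogen HFSCs, set against ad libitum libraries 2 and 3 of the same table, 15 members were called lower, beside 1.09% of 11618 genes called lower and 6.10% called either way. Of the 19 members that passed the filter, Gm28437 and Gm28661 were listed at 0 in the ad libitum libraries and passed only through telogen, so their higher calls are not counted as results and their values are given with the other copies. Including them, 17 calls became 11 without the first telogen library and 0 with no filter on low values. Under median-ratio scaling mt-Co2, mt-Co3, Gm20594 and Gm29216 were not called. All 13 mRNAs lay below those 2 ad libitum libraries without overlap, as did 19.8% of all genes. The range over the 13 mRNAs was wide. mt-Atp8 had the largest decline (log2 fold change -3.69, SE 0.32), and mt-Co2, a copper-binding subunit of complex IV, the smallest (-1.95, SE 0.29), with 4443 and 4220 TPM in telogen against 14740 and 18870 TPM in those 2 ad libitum libraries. The submitters' processing notes list another read trimmer for telogen than for the fasting series, and the trimmer and the group cannot be told apart.

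Under long-term alternate-day fasting 0 of 17 members were called, beside 0.00822% of 12162 genes, and 5 of the 17 had an unadjusted p under 0.05, as did 14.1% of all genes. Without a call, the log2 fold changes of single mRNAs ran in both directions. mt-Atp6 had 3411 and 3763 TPM with alternate-day fasting, against 8113 and 7998 TPM in long-term fed HFSCs (log2 fold change -1.17, SE 0.26). With its copy Gm10925 added, the values were far closer, at 10970 and 9202 TPM against 11000 and 12120 TPM. mt-Co3, by contrast, had 2238 and 2497 TPM against 621.0 and 1905 TPM (1.12, SE 0.49), and mt-Nd3 had 74.75 and 77.37 TPM against 14.64 and 62.9 TPM (1.29, SE 0.59). The fed values of mt-Co3 and mt-Nd3 were low mainly in long-term fed library 1.

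The other long-term values were closer together. mt-Nd4 had 264.8 and 335.1 TPM with alternate-day fasting against 518.3 and 475.6 TPM in fed HFSCs. mt-Nd5 averaged 88.05 ± 12.3 TPM against 150.8 ± 32.18 TPM, and mt-Nd1 841.6 ± 71.86 TPM against 744.8 ± 114.8 TPM (SD, n = 2 each). mt-Cytb had 2150 and 2161 TPM against 3082 and 2690 TPM, mt-Nd2 217.3 and 252.0 TPM against 265.6 and 407.5 TPM, and mt-Nd6 120.1 and 79.14 TPM against 179.7 and 148.9 TPM. For mt-Cytb, mt-Nd2, mt-Nd4, mt-Nd5, mt-Nd6 and mt-Atp6 the fasted libraries lay below the fed ones without overlap, as 21.0% of all genes did. For mt-Co2, mt-Co3 and mt-Nd3 they lay above, as 29.6% did. mt-Co1 had 1971 and 2749 TPM against 1543 and 2053 TPM, which overlap, as did mt-Nd1, mt-Nd4l and mt-Atp8. mt-Co2 had 1353 and 1360 TPM against 685.7 and 1115 TPM.

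As shares of the 13, the mRNAs kept a fixed rank in the fasting series for mt-Atp8, mt-Atp6 and mt-Co3 (ranks 1, 2 and 3 in 9 of 9 libraries) and for mt-Nd1 (rank 7). mt-Nd5 and mt-Nd6 held ranks 12 and 13 in these libraries, in either order. mt-Atp8 made up 43.96% to 52.3% of the sum over the 9 libraries, and the 24 h and 48 h shares overlapped those with food ad libitum. Because mt-Atp8 is so short, its share by bases was smaller: weighted by length it averaged 17.3% ± 0.54 of the mitochondrial mRNA in ad libitum HFSCs, close to mt-Co1 with 17.45% ± 0.41 and mt-Atp6 with 18.4% ± 0.59 (SD, n = 3 each).

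Within this stable order, 2 mRNAs lay outside the ad libitum shares at both fasting times, mt-Co1 above and mt-Cytb below. mt-Co1 took 7.17%, 8.74% and 7.64% of the sum after 24 h and 7.65%, 7.04% and 9.13% after 48 h, against 6.32%, 6.56% and 6.19% with food ad libitum. mt-Cytb took 6.01%, 5.76% and 4.90% after 24 h and 4.90%, 5.11% and 5.21% after 48 h, against 7.06%, 6.44% and 6.45%. Neither fasted group overlapped the ad libitum libraries, on which both contrasts rest. mt-Nd4l was also below without overlap at 48 h (1.62%, 1.34% and 2.11%, against 2.15%, 2.54% and 2.30%), by a narrow margin in 48 h library 3.

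**Figure D2:**
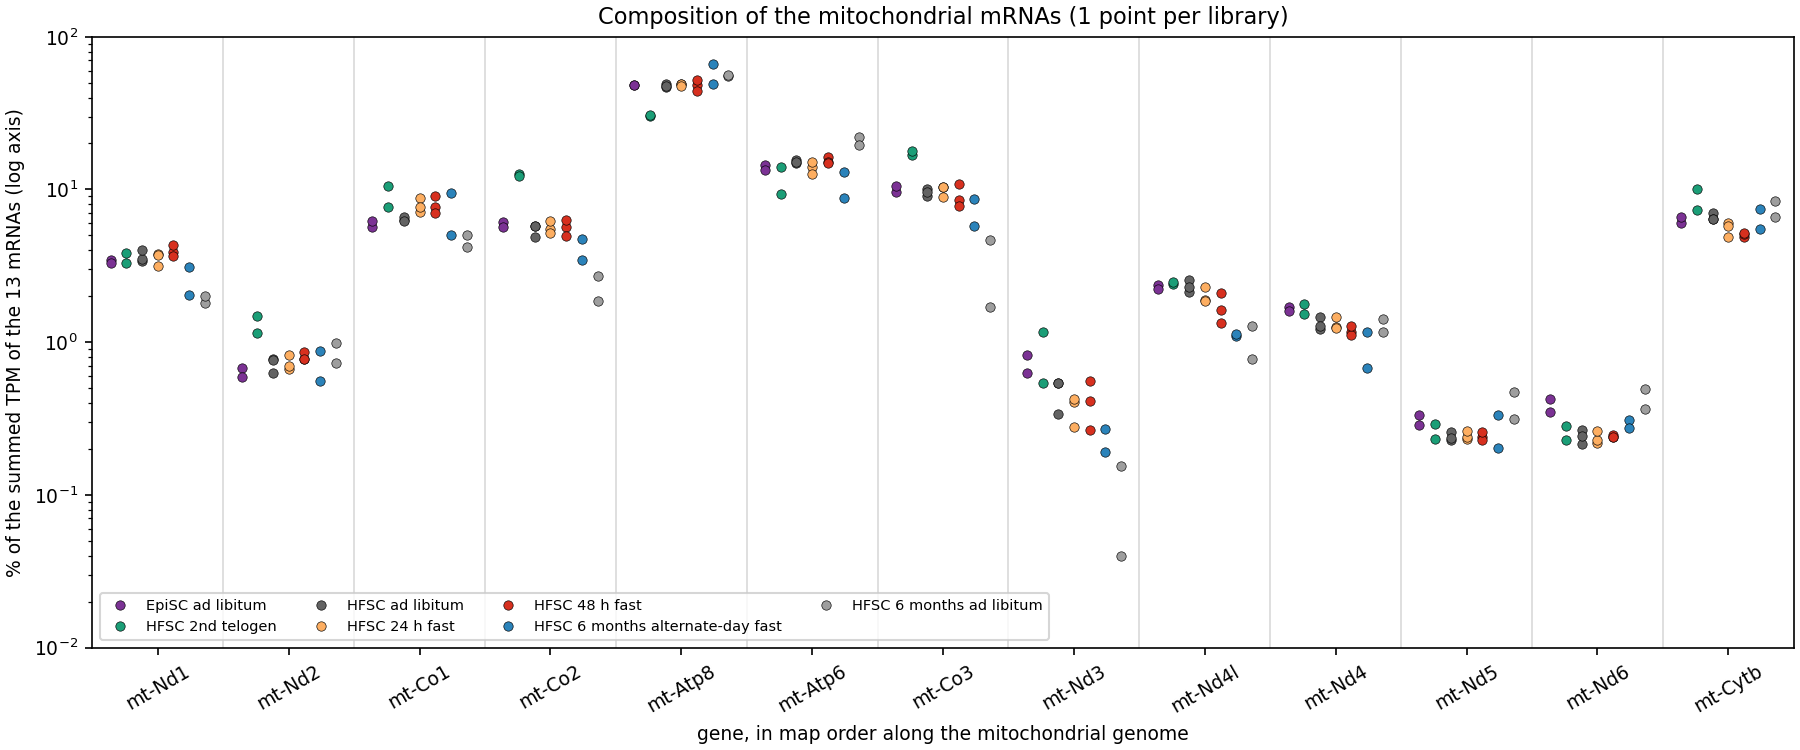
Percent of the summed TPM of the 13 mitochondrial mRNAs that each mRNA took (y axis, log scale), for every library, with groups told apart by colour and genes in map order along the mitochondrial genome. mt-Atp8 stands highest in every library at 30.3% to 66.5%, and the points of mt-Co3 and mt-Nd3 reach lowest in a long-term fed library, at 1.70% and 0.040%.

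In EpiSCs 4 of the 13 mRNAs (mt-Nd3, mt-Nd4, mt-Nd5 and mt-Nd6) took larger shares than in any ad libitum HFSC library. Of the other complex I mRNAs, mt-Nd1, mt-Nd2 and mt-Nd4l overlapped. Shares within the 13 have no percentage over all genes to stand beside them, and the count is a description. On the TPM scale, 16.2% of all genes lay below the ad libitum range without overlap in this comparison, and 50.5% above. mt-Nd6 took 0.424% and 0.351% of the sum in EpiSCs, against 0.214%, 0.266% and 0.241% in ad libitum HFSCs. mt-Nd3 took 0.826% and 0.631% against 0.340%, 0.537% and 0.540%. mt-Nd4 and mt-Nd5 were also above without overlap, at 1.69% and 1.60% against 1.22%, 1.47% and 1.27% for mt-Nd4, and 0.331% and 0.288% against 0.228%, 0.256% and 0.236% for mt-Nd5. mt-Atp6 lay below without overlap, at 14.4% and 13.4% against 15.6%, 14.98% and 15.1%, and mt-Co1 did so by a narrow margin, at 5.67% and 6.19% against 6.32%, 6.56% and 6.19%. These shares leave out the copies. With Gm10925 added, mt-Atp6 was 5.40 and 5.79 times mt-Nd1 in EpiSCs, against 4.82, 4.86 and 4.11 in ad libitum HFSCs. With its copies added, mt-Co1 was 4.93 and 5.37 times mt-Nd1, against 4.47, 4.685 and 3.74. Both sums thus lay above the ad libitum range relative to mt-Nd1. The ratio of mt-Nd6 to mt-Nd1, which lie on opposite strands, was 0.123 and 0.107 in EpiSCs, against 0.0628, 0.0758 and 0.0598 in ad libitum HFSCs. mt-Nd5 and mt-Nd6 overlap by 14 bases on opposite strands, and the sources used here do not state whether strand was used in quantification.

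In telogen HFSCs 7 of the 13 mRNAs took larger shares than in the ad libitum libraries without overlap, and mt-Atp6 and mt-Atp8 smaller ones. The margin was narrow for mt-Nd3 (0.542% and 1.17%, against at most 0.540%), and mt-Nd4 had 1.79% and 1.53% against at most 1.47%. Shares within the 13 have no percentage over all genes to stand beside them. On the TPM scale, 19.8% of all genes lay below ad libitum libraries 2 and 3 without overlap, and 24.4% above. The counts are descriptions. The share of mt-Atp6 leaves out its copy. With Gm10925 added, mt-Atp6 was 7.20 and 8.63 times mt-Nd1 in telogen, against 4.82, 4.86 and 4.11 in ad libitum HFSCs. Relative to mt-Cytb that sum was 2.76 and 3.90, against 2.33, 2.65 and 2.57, so it lay above the ad libitum range in both ratios. mt-Atp8 made up 30.3% and 30.5% of the sum there, against 48.8%, 46.8% and 47.5% in ad libitum HFSCs, and no other library was below 43.96%. The complex IV mRNAs took larger shares: mt-Co3 had 16.8% and 17.8% against 9.05%, 10.07% and 9.59%, and mt-Co2 had 12.7% and 12.3% against 4.92%, 5.80% and 5.78%. With mt-Atp8 left out of the sum, mt-Co2, mt-Co3 and mt-Nd2 were still above the ad libitum libraries without overlap, and mt-Co1, mt-Cytb, mt-Nd3 and mt-Nd4 no longer were. In that sum 5 lay below without overlap: mt-Atp6, mt-Nd1, mt-Nd4l, mt-Nd5 and mt-Nd6.

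Long-term fed HFSCs stood apart at mt-Atp6 and mt-Co3. Without its copy, mt-Atp6 took 8.74% and 13.05% of the sum with alternate-day fasting, against 22.1% and 19.5% in long-term fed HFSCs, where it was highest of all groups. With Gm10925 added, mt-Atp6 was 5.11 and 4.26 times mt-Cytb with alternate-day fasting and 3.57 and 4.51 times in fed HFSCs, which overlap. Relative to mt-Nd1 that sum was 13.9 and 10.3 against 16.6 and 14.7, which do not overlap. mt-Co3 took 5.73% and 8.66% against 1.70% and 4.65%. The ratio of mt-Co3 to mt-Cytb was 1.04 and 1.16 with alternate-day fasting and 0.201 and 0.708 in fed HFSCs. In the other 13 libraries that ratio lay between 1.28 and 2.44.

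Among the copies, Gm29216 and Gm10925 of the chromosome 1 block and Gm20594 of chromosome 6 were by far the highest. Gm29216, which covers the end of mt-Co1, was listed above its parent in 17 of 17 libraries. It shares 449 of 462 words of 31 bases with mt-Co1, so its level above the parent rests on the authors' quantification. It had 4065 and 3264 TPM in EpiSCs, 7322 and 6427 TPM in telogen HFSCs, 30230, 25190 and 29040 TPM in ad libitum HFSCs, 23030, 55210 and 40160 TPM after 24 h, and 18450, 14660 and 11140 TPM after 48 h. As a percentage of mt-Co1 it was 171%, 174% and 193% after 24 h and 185%, 213% and 168% after 48 h, against 141%, 151% and 144% with food ad libitum. No other group reached down to the ad libitum range.

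Gm10925, the copy of mt-Atp6, was the least stable member of this size. As a percentage of mt-Atp6 it was 29.3% and 41.8% in EpiSCs, 196% and 103% in telogen HFSCs, 5.14%, 14.1% and 9.99% with food ad libitum, 33.2%, 51.1% and 12.58% after 24 h, and 8.26%, 37.2% and 9.59% after 48 h. Within the 24 h group its level was 8830, 23380 and 5191 TPM, against 2725, 5368 and 4924 TPM with food ad libitum, so that the log2 fold change of 1.30 carried an SE of 0.54.

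In the long-term pair Gm10925 had 7564 and 5439 TPM with alternate-day fasting, against 2887 and 4127 TPM in fed HFSCs, which is 222% and 145% of mt-Atp6 against 35.6% and 51.6%. Copy and parent thus differed in opposite directions. Their sum was 10970 and 9202 TPM with alternate-day fasting and 11000 and 12120 TPM in fed HFSCs, far closer than mt-Atp6 alone. The ratio of mt-Atp8 to mt-Atp6 was 7.61 and 3.79 with alternate-day fasting against 2.50 and 2.86 in fed HFSCs, and with Gm10925 added to mt-Atp6 it was 2.36 and 1.55 against 1.85 and 1.89, where the groups overlap.

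The same sum narrowed the ratio over the 9 libraries of the fasting series, which was 2.94 to 3.89 for mt-Atp6 alone and 2.53 to 2.97 with Gm10925. In telogen HFSCs mt-Atp8 was 3.26 and 2.18 times mt-Atp6, and 1.10 and 1.07 times the sum, below all other libraries. For mt-Co1, adding Gm29216 and Gm13340 left the 24 h libraries at 36530, 86920 and 60980 TPM, against 51620, 41890 and 49280 TPM with food ad libitum, which overlap. The 48 h sums of 28400, 21550 and 17770 TPM remained below the ad libitum range.

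**Figure D3:**
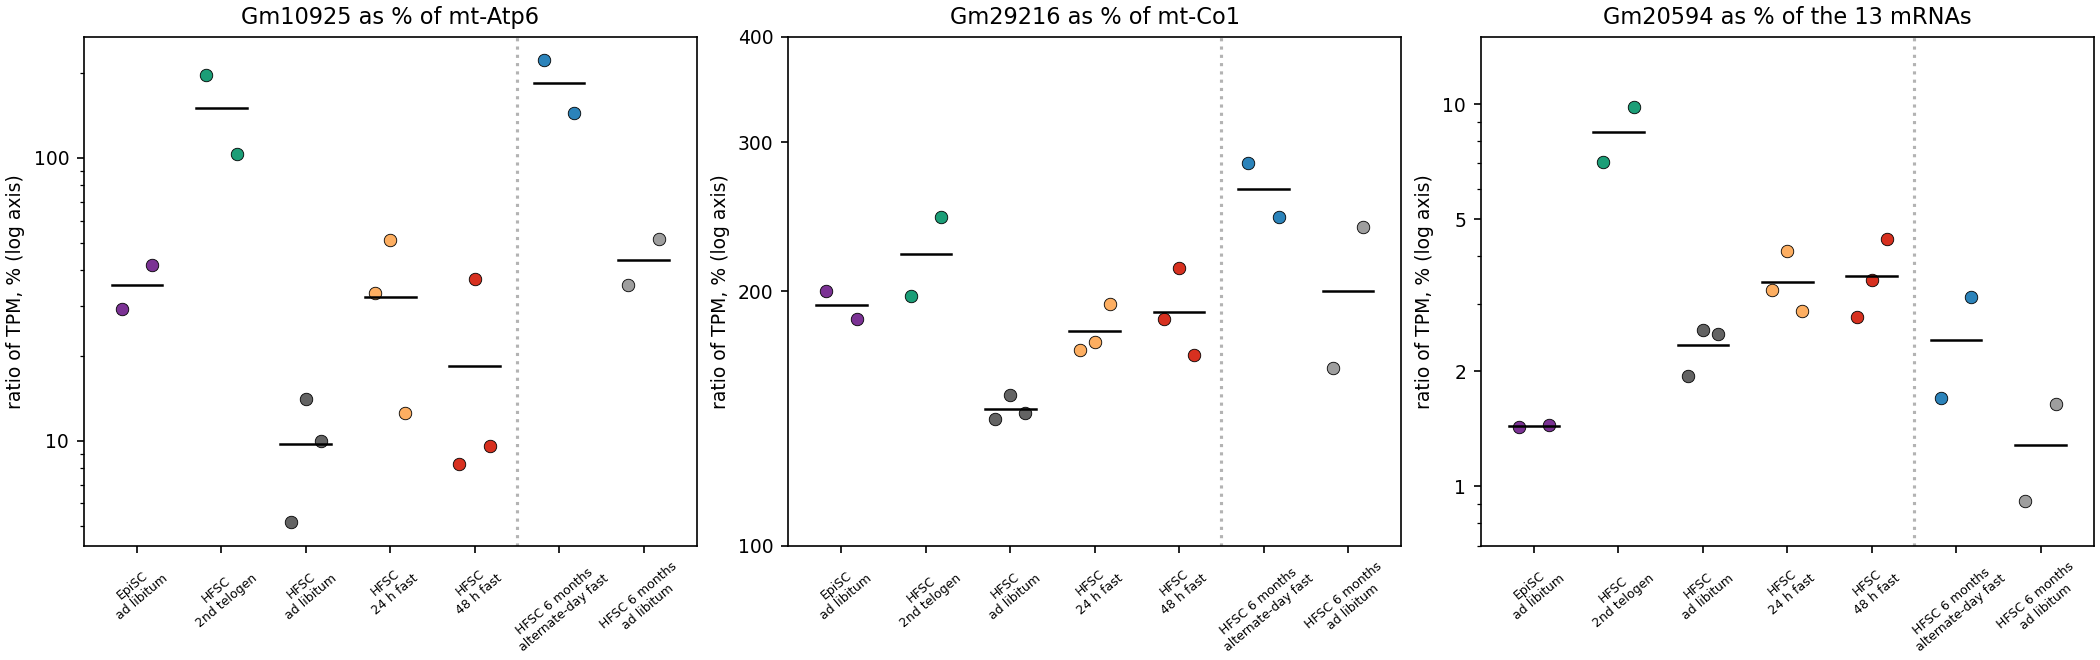
Ratio of a nuclear gene to mitochondrial mRNA in each library (y axes, percent of TPM, log scale), with points for libraries and bars for group means: Gm10925 to mt-Atp6, Gm29216 to mt-Co1, and Gm20594 to the sum of the 13 mRNAs. Gm10925 spans 5.14% to 222%, Gm29216 stays between 141% and 284%, and Gm20594 runs between 0.915% and 9.81% with the telogen libraries on top.

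Gm20594, whose closest mitochondrial sequence is the large ribosomal RNA, had 2465 and 3357 TPM in telogen HFSCs. It had 6597, 6513 and 8188 TPM with food ad libitum, 6153, 14970 and 7810 TPM after 24 h and 3601, 3394 and 3223 TPM after 48 h. Set against the sum of the 13 mRNAs it was 3.27%, 4.12% and 2.87% after 24 h and 2.77%, 3.47% and 4.44% after 48 h, against 1.95%, 2.56% and 2.51% with food ad libitum. Telogen HFSCs had 7.05% and 9.81%, above all other libraries, and EpiSCs 1.43% and 1.44%. With alternate-day fasting it had 665.6 and 901.3 TPM, against 335.1 and 673.9 TPM in long-term fed HFSCs, which overlap.

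Of the remaining copies, Gm28438 had 20.69 and 13.1 TPM in telogen HFSCs and at most 48.29 TPM in any library. It was listed at 0 in 1 alternate-day fasted library. Gm28437, identical to mt-Co3 except for the last base, which the annotated copy lacks, was listed at 179.8 and 108.7 TPM in telogen HFSCs. It had 27.44 TPM in EpiSC library 2 and was listed at 0 elsewhere. Gm28661, the copy of mt-Co2, had 17.09 and 63.74 TPM in telogen HFSCs and was listed at 0 in the other 15 libraries. These are 3.07% and 1.79% of mt-Co3, and 0.385% and 1.51% of mt-Co2. Gm10222, Gm28439 and Gm10221 were listed at 0 in all 17 libraries, although mt-Nd4l and mt-Nd4, the parents of the first and second, were among the detected mRNAs throughout. Gm13340 reached at most 0.934 TPM, Gm13341 0.613 TPM and Gm8394 0.0917 TPM.

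To compare mitochondrial with nuclear subunits of the same complexes, the TPM of 71 nuclear subunit genes was summed per complex (36 for complex I, 9 for complex III, 11 for complex IV and 15 for complex V). Both sides are TPM, a level per length. Over complexes I, III, IV and V together, mitochondrial mRNAs were 12.9, 10.8 and 14.2 times the nuclear ones in ad libitum HFSCs, 8.74, 28.1 and 20.7 times after 24 h, and 6.74, 5.08 and 3.67 times after 48 h. The ratio was 1.01 and 0.880 in EpiSCs, 1.24 and 0.863 in telogen HFSCs, and 1.79 and 1.07 with alternate-day fasting against 2.26 and 1.64 in long-term fed HFSCs. The 48 h libraries were below all ad libitum and 24 h libraries, and EpiSC and telogen libraries were below these.

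In each complex the 48 h libraries lay below the ad libitum range. For complex I the ratio was 1.33, 0.926 and 0.871 after 48 h, against 2.42, 2.41 and 3.12 with food ad libitum. For complex IV it was 7.40, 5.33 and 4.52 after 48 h, against 14.03, 12.4 and 16.03, and for complex V without mt-Atp8 it was 4.83, 3.33 and 2.30, against 8.81, 6.75 and 9.10. At 48 h the nuclear sum of complex I averaged 8084 ± 118.1 TPM against 10380 ± 919.4 TPM with food ad libitum, and the mitochondrial sum 8433 ± 2095 TPM against 27390 ± 3443 TPM (SD, n = 3 each). At 24 h the nuclear mean was 6687 ± 2231 TPM and the mitochondrial mean 23390 ± 7927 TPM, so that the nuclear sum was proportionally further below its ad libitum mean than the mitochondrial one. By library the nuclear complex I genes had 8144, 8159 and 7948 TPM after 48 h and 9254, 5596 and 5213 TPM after 24 h, against 11440, 9880 and 9822 TPM with food ad libitum. 24 h libraries 2 and 3, which had high ratios, had the lowest nuclear sums of the 17 libraries.

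**Figure D4:**
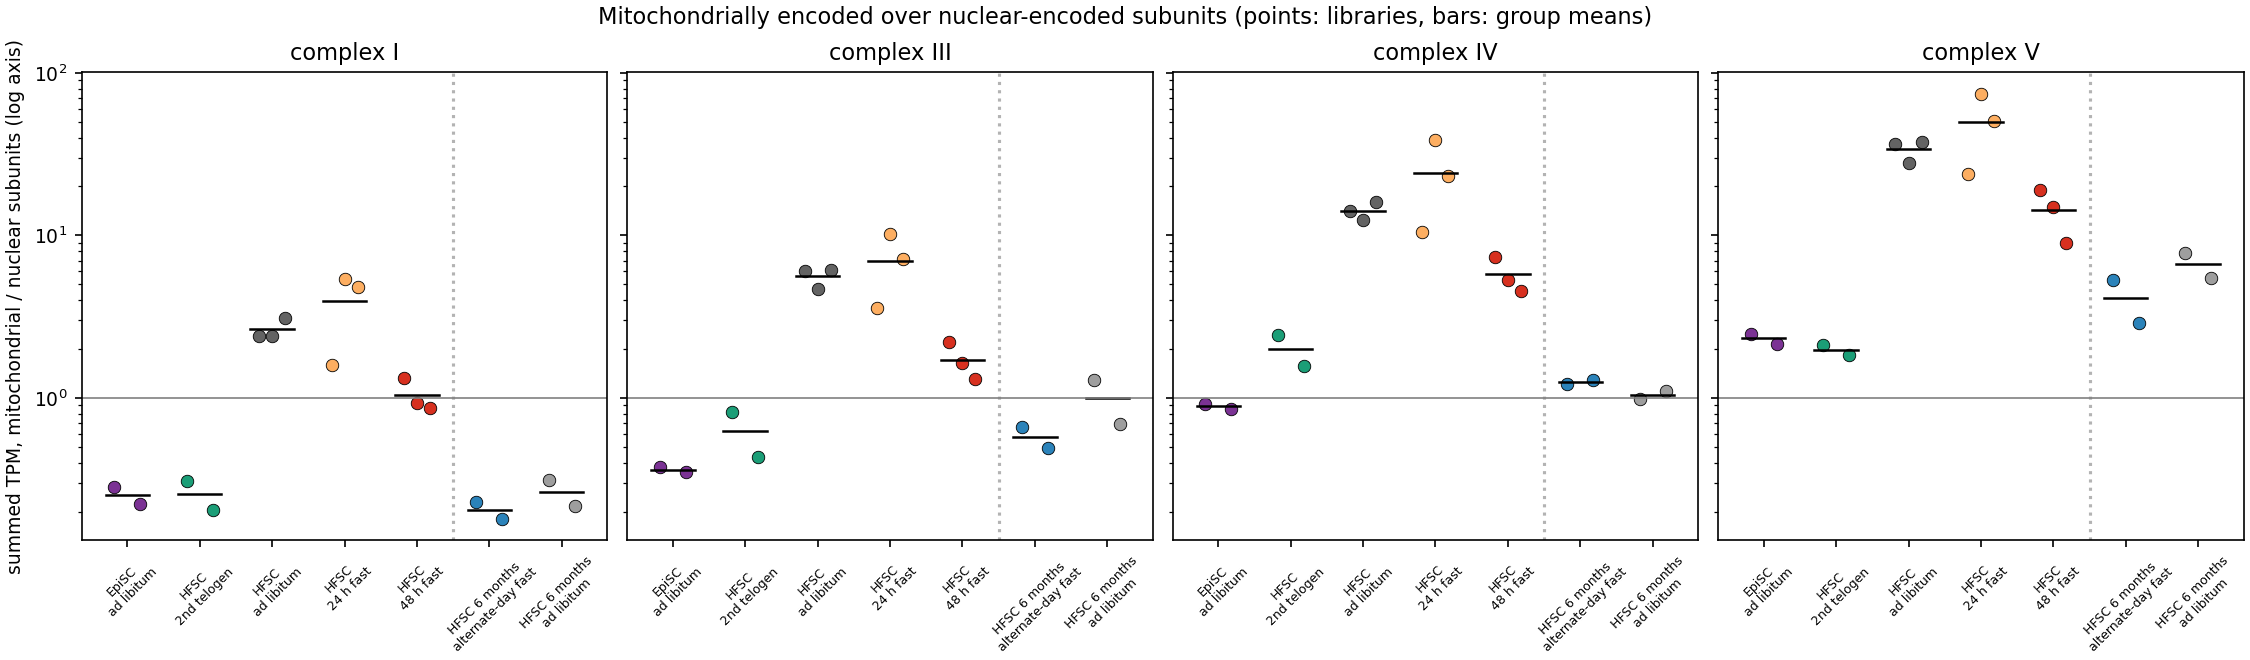
Summed TPM of the mitochondrially encoded subunits over that of the nuclear subunits for complexes I, III, IV and V (y axis, ratio, log scale), with points for libraries, bars for group means and a line at 1. In complex I the 48 h libraries lie at 0.871 to 1.33 and the ad libitum HFSC libraries at 2.41 to 3.12, while EpiSCs lie at 0.224 and 0.284.

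The nuclear subunit genes were no part of the set and were tested, although their lists too were chosen with earlier results of these data known. At 24 h, 0 of 71 were higher and 14 lower (median log2 fold change -0.61, beside -0.02 over all genes), among them 6 of complex I, where 1.60% of genes were called lower. Relative to genes outside the set 27 were lower, beside 2.62% of genes. At 48 h, 1 was higher (Ndufa6) and 7 lower, beside 13.3% and 1.98% of all genes (median -0.23, beside 0.42 over all genes). Relative to genes outside the set 0 were higher and 35 lower, beside 5.88% and 5.11% of all genes (median -0.66, beside 0.05). The count of 14 at 24 h was 2, 5 and 4 without ad libitum library 1, 2 or 3, and 45, 9 and 5 without 24 h library 1, 2 or 3, and 9 without 48 h library 2. The count of 8 at 48 h was 1 and 5 without ad libitum library 1 or 3, and 23 and 13 without 24 h library 1 or 2, and 3, 2 and 2 without 48 h library 1, 2 or 3. In EpiSCs, 42 were higher and 2 lower, beside 31.5% and 9.10% of all genes. Relative to genes outside the set 3 were higher and 7 lower, beside 15.5% and 16.3% of all genes. The EpiSC count of 44 was 7 without EpiSC library 1 and 19 without EpiSC library 2. In telogen, Ndufb2 and Uqcr10 were higher, named after their values were seen, beside 5.01% of all genes called higher, and 0 were called under either other scaling. In the long-term pair 0 of 71 were called by limma, and 6 had an unadjusted p under 0.05, beside 14.1% of all genes.

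Genes that copy, transcribe, process and remove mitochondrial RNA and DNA were examined next, as 5 lists with 80 genes, of which 78 or 79 passed the filter. Mitochondrial transcription is carried out by the polymerase Polrmt with the factors Tfam and Tfb2m, and Tefm lets it elongate. Lrpprc with Slirp binds and stabilises the mRNAs, and Supv3l1 with Pnpt1 degrades mitochondrial RNA. None of these 8 was called at 24 h, at 48 h or in the long-term pair. Polrmt had 15.21, 13.08 and 17.75 TPM after 48 h, against 0.808, 10.8 and 9.16 TPM with food ad libitum (log2 fold change 1.43, SE 0.61, limma adjusted p = 0.121). Tfam had 29.51, 19.19 and 18.54 TPM against 15.3, 13.74 and 14.5 TPM (0.56, SE 0.44, adjusted p = 0.404). Tfb2m had 28.04, 53.39 and 45.95 TPM against 21.54, 18.88 and 21.73 TPM (0.95, SE 0.36, adjusted p = 0.0835). For these 3 genes the 48 h libraries lay above the ad libitum range, as they did for 35.5% of all genes.

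The other 5 of these genes were nearer to their ad libitum level at 48 h, each with a 95% interval that includes 0. Slirp had 32.2, 24.12 and 16.0 TPM against 49.03, 27.52 and 36.02 TPM (-0.63, SE 0.34), and Tefm had 10.27, 19.42 and 11.19 TPM against 16.03, 16.1 and 18.58 TPM (-0.34, SE 0.38). Pnpt1 was at 0.51 (SE 0.38), Supv3l1 at 0.27 (SE 0.58) and Lrpprc at 0.08 (SE 0.43) on the log2 scale. The signs of Supv3l1 and Lrpprc turned relative to genes outside the set, to -0.10 and -0.30.

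Of the 78 partner genes tested, 1 rose at 24 h, where 1.47% of all genes were called higher. It was Bnip3, a receptor on the outer mitochondrial membrane for mitophagy, the removal of mitochondria by autophagy, with 192.9, 136.7 and 257.5 TPM after 24 h against 77.39, 74.19 and 65.66 TPM with food ad libitum (1.38, SE 0.28, adjusted p = 0.0155). Without ad libitum library 1 or 3, or 24 h library 3, it was not called (highest adjusted p 0.0686), while 2 partner genes were called without ad libitum library 2 and 3 without 24 h library 2.

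At 48 h, 13 of 78 rose and 0 fell, beside 13.3% of all genes called higher, and 6 rose relative to genes outside the set, beside 5.88%. Both shares are near the background. By list, 7 of 14 mitophagy genes rose, 5 of 32 genes of RNA processing and decay, 1 of 17 of mitochondrial DNA maintenance, 0 of 9 of transcription and 0 of 6 regulators of mitochondrial biogenesis. The medians over these lists were 0.95, 0.53, 0.44, 0.27 and 0.53, beside 0.42 over all genes. Relative to genes outside the set 4 mitophagy genes (Bnip3, Optn, Pink1 and Sqstm1) and 2 of RNA processing and decay (Grsf1 and Trnt1) rose. The mitophagy adaptor Optn had 8.04, 10.96 and 11.18 TPM after 48 h against 0, 2.48 and 1.82 TPM (2.36, SE 0.53, adjusted p = 0.00865). Pink1, a kinase that marks damaged mitochondria, had 210.0, 234.8 and 266.3 TPM against 29.98, 93.25 and 73.18 TPM (1.98, SE 0.34, adjusted p = 0.00146).

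Other partner genes called at 48 h belong to the handling of mitochondrial nucleic acids. Grsf1, an RNA-binding protein of mitochondrial RNA granules, had 21.14, 29.36 and 26.0 TPM after 48 h against 2.46, 6.33 and 10.2 TPM (2.00, SE 0.50, adjusted p = 0.0146). Fastkd5, needed for cutting precursors that no transfer RNA separates, had 9.56, 11.01 and 8.61 TPM against 0.282, 4.64 and 3.10 TPM (1.79, SE 0.55, adjusted p = 0.0389). Polg, the mitochondrial DNA polymerase, had 29.84, 23.94 and 23.1 TPM against 4.53, 13.6 and 6.57 TPM (1.64, SE 0.52, adjusted p = 0.0439). Relative to genes outside the set Grsf1 held (adjusted p = 0.0367), while Fastkd5 (0.107) and Polg (0.134) did not pass the threshold. Bnip3, which had 487.5, 545.5 and 277.4 TPM after 48 h, Pink1 and Optn passed on leaving out any 1 library (highest adjusted p 0.000832, 0.00970 and 0.0497), and Grsf1, Fastkd5 and Polg did not (0.0806, 0.185 and 0.179). The count of 13 was 5 without ad libitum library 1 or 48 h library 3, 7 without 48 h library 1 or 2 and 8 without ad libitum library 3.

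**Figure D5:**
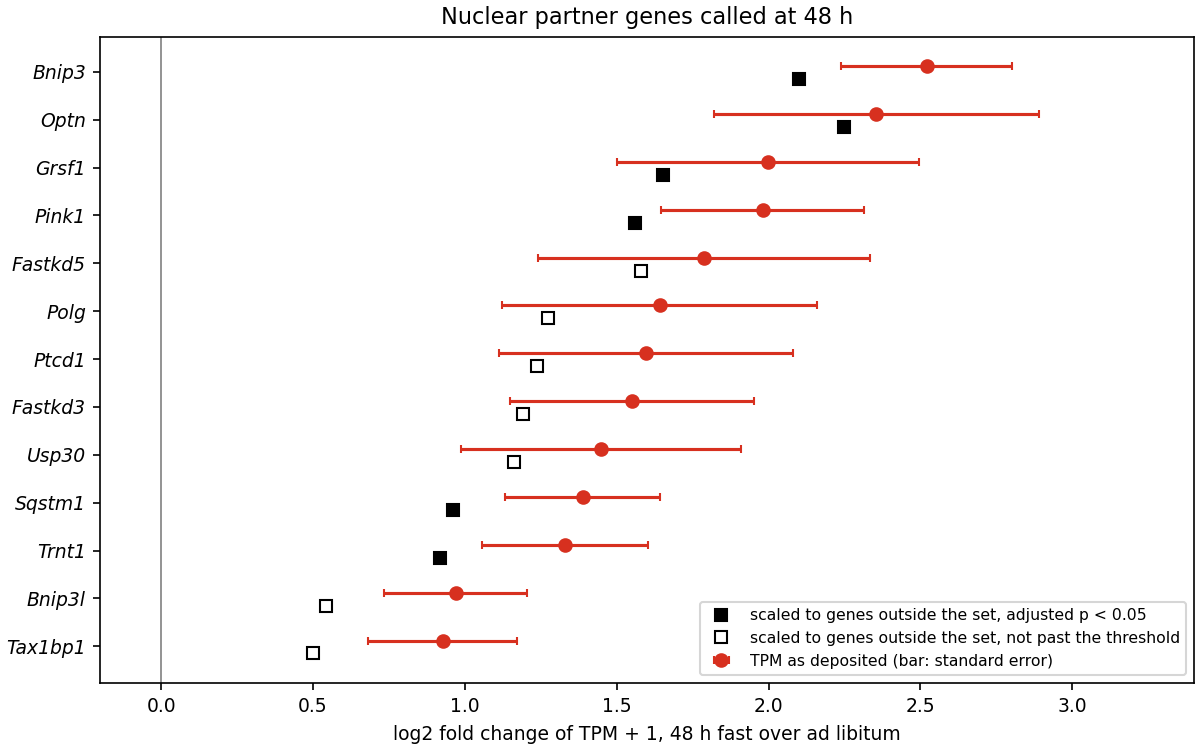
Log2 fold change of TPM + 1 (x axis), 48 h fasted over ad libitum HFSCs, for the 13 nuclear partner genes called at 48 h (rows), with circles and standard errors for TPM as deposited and squares for values relative to genes outside the set. All squares lie left of their circles, and 6 of the 13 squares are filled, which marks an adjusted p under 0.05.

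In EpiSCs, 16 of 79 partner genes were higher and 3 lower than in ad libitum HFSCs, beside 31.5% and 9.10% of all genes, and 7 and 8 relative to genes outside the set, beside 15.5% and 16.3%. Lrpprc had 13.99 and 14.15 TPM against 4.65, 7.46 and 6.10 TPM (1.11, SE 0.35, adjusted p = 0.0341), and Supv3l1 had 14.32 and 13.05 TPM against 4.38, 9.13 and 3.53 TPM (1.23, SE 0.43, adjusted p = 0.0499). Neither passed relative to genes outside the set (0.176 and 0.191). Of the genes that did, the differences largest on the deposited scale were those of Bcl2l13, a mitophagy receptor, with 40.17 and 52.8 TPM against 4.17, 15.2 and 2.64 TPM (2.81, SE 0.59, adjusted p = 0.00654), and Pprc1, a coactivator of mitochondrial biogenesis, with 16.08 and 16.35 TPM against 0.486, 3.74 and 1.81 TPM (2.67, SE 0.52, adjusted p = 0.00473).

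Polg had 38.26 and 39.57 TPM in EpiSCs against 4.53, 13.6 and 6.57 TPM (2.23, SE 0.42, adjusted p = 0.00428). Pde12, which removes poly(A) tails in mitochondria, had 14.69 and 13.43 TPM against 2.93, 2.76 and 3.68 TPM (1.87, SE 0.35, adjusted p = 0.00426), and Tbrg4, of the same FASTK family as Fastkd5, had 49.54 and 55.11 TPM against 12.71, 14.03 and 13.32 TPM (1.89, SE 0.25, adjusted p = 0.000715). Rrm2b, a subunit of ribonucleotide reductase that supplies nucleotides for mitochondrial DNA, was lower with 3.03 and 2.67 TPM against 22.1, 21.2 and 6.05 TPM (-2.00, SE 0.55, adjusted p = 0.0203). The count of 19 was 2 without EpiSC library 1, 3 without EpiSC library 2 and 34 without ad libitum library 2. Of the EpiSC genes named here, Tbrg4 alone passed on leaving out any 1 of the 5 libraries (highest adjusted p 0.0364).

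In telogen, 3 of 79 partner genes were higher and 0 lower, beside 5.01% of genes called higher. Slirp had 84.8 and 118.0 TPM in telogen against 27.52 and 36.02 TPM (1.64, SE 0.38, adjusted p = 0.00540), the pyrimidine nucleotide carrier Slc25a33 had 16.67 and 13.71 TPM against 1.80 and 3.94 TPM (2.12, SE 0.61, adjusted p = 0.0318), and the autophagy adaptor Sqstm1 had 454.7 and 320.9 TPM against 194.2 and 163.2 TPM (1.10, SE 0.31, adjusted p = 0.0263). None of these 3 passed relative to genes outside the set, where the median of all genes was -0.43, and each call was lost on leaving out 1 library (highest adjusted p 0.235, 0.295 and 0.484). In the long-term pair 0 of 78 partner genes were called by limma, and 12 had an unadjusted p under 0.05, beside 14.1% of all genes.

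Over the 17 libraries, the genes outside the set whose log2 values were most like those of the summed mitochondrial mRNAs were Lama5, Fam71a, LT629153.4, Luc7l2, Gm48836 and Arglu1. Pearson's r was 0.83, 0.82, 0.81, 0.81, 0.81 and 0.77, among 7086 genes with a mean of at least 10 TPM, given as a description across libraries that share groups. Lama5, a laminin chain of the basement membrane, averaged 6.91 TPM in EpiSCs and 5.47 TPM in telogen HFSCs, against 21.6 TPM in ad libitum HFSCs. Its mean was 19.0 TPM after 24 h.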

How the data were processed

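The authors deposited TPM for 35674 gene symbols in 3 tables. The submitters' processing notes list mm10, Salmon 1.4.0 and DESeq2 1.36.0, with the read trimmers fastp 0.23.1 (fasting series and EpiSCs) or Trimmomatic 0.39 (long-term and telogen). Per the labels' protocols, a kit for small amounts of RNA was followed by full-length mRNA amplification and a transposase library kit. Depth is unknown, and no counting interval is given.

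The members and lists were chosen with earlier results of these data known. Members with a mean of at least 1 TPM over the 17 libraries were named with values. Of the partner lists 8 genes were always named, with up to 6 more per comparison that passed the threshold with the largest fold change. The 6 genes outside the set most correlated with the summed mRNAs were also named.

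limma 3.58.1 (R 4.3.3) was fitted to log2(TPM + 1) with a mean-variance trend, over genes with a mean of at least 1 TPM in the fit. Tests were two-sided with Benjamini-Hochberg adjustment across every gene tested. The 9 HFSC libraries of the fasting series shared 1 fit, EpiSCs were fitted with the 3 ad libitum libraries, the long-term groups with each other, and telogen with the 2 ad libitum libraries of its table, which equal those of the first table within 1e-06. The procedure was tested on simulated data. Fold changes on this scale understate those of low genes. Alternatives were a pseudocount of 0.1, no filter, scaling to the genes outside the set, median-ratio scaling, a replicate block and leaving out each library.

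Copies were aligned to GENCODE M21 mitochondrial transcripts with blastn 2.17.0. The telogen columns could not be matched to single samples and carry no number. Titles set the groups, although the treatment field of the long-term fasted libraries reads ad libitum. Other samples that the series' design names, EpiSCs after fasting, were not analysed here.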

Additional observations from a re-analysis of the deposited data

How the results depend on the processing

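Depth is unknown and limits all values in a way that cannot be stated, and with 2 or 3 libraries a group the counts of calls moved with single libraries. The numbers of ad libitum, fasted and EpiSC libraries did not pair them (same-number correlations of deviations between -0.132 and 0.0505), so the replicate block is given here only. With the block, 19 genes were called between 48 h and 24 h, against 5 without it, and in the long-term pair 284 genes, 1 member, 3 partner genes and 1 subunit gene, against 1, 0, 0 and 0. Tefm in EpiSCs turned to 0.015 with the block. No paired analysis was possible for telogen because its columns carry no numbers. Without a filter on low values the genes called were 61 at 24 h (354 with it), 918 at 48 h (1765), 0 between 48 h and 24 h, 0 in the long-term pair and 4 in telogen (709). Members called without the filter were 7 at 48 h, 0 between 48 h and 24 h and 0 in telogen, partner genes 0 at 24 h, 5 at 48 h, 9 in EpiSCs and 0 in telogen, and subunit genes 2 at 24 h, 2 at 48 h and 0 in telogen. The cause was not tested. Scaling to genes outside the set and median-ratio scaling gave 607 and 559 genes at 24 h, 0 and 0 genes and 0 and 0 members between 48 h and 24 h, and 4 and 4 partner genes at 24 h. At 48 h they gave 6 and 5 partner genes and 35 and 33 subunit genes. At 24 h the first gave 27 subunit genes. In EpiSCs they gave 10 and 6 subunit genes and in telogen 0 and 0. With a pseudocount of 0.1, 1 gene and 0 members were called between 48 h and 24 h, and 1 subunit gene in telogen. Under the same pair of scalings the log2 fold change turned to -0.30 and -0.34 for Lrpprc and -0.10 and -0.15 for Supv3l1 at 48 h, to -0.28 and -0.33 for Lrpprc and -0.16 and -0.23 for Slirp between 48 h and 24 h, and in EpiSCs to -0.060 and -0.035 for Tfam and -0.47 and -0.44 for Tfb2m. With the copies added, the mean mitochondrial share was 3.79% in EpiSCs, 5.03% in telogen, 4.74% with alternate-day fasting and 4.65% in long-term fed HFSCs. Leaving out 1 library gave 99 to 489 genes at 24 h, 744 to 2448 at 48 h, 0 to 345 between 48 h and 24 h, 1253 to 5610 in EpiSCs, 0 to 16 in the long-term pair and 29 to 553 in telogen. Members called ranged from 0 to 15 between 48 h and 24 h, 11 to 15 at 48 h, 16 to 17 in EpiSCs and 11 to 15 in telogen. Partner genes ranged from 0 to 3 at 24 h, 5 to 15 at 48 h, 0 to 3 between 48 h and 24 h, 2 to 34 in EpiSCs and 0 to 1 in telogen, and subunit genes from 2 to 45, 1 to 23, 0 to 7, 7 to 45 and 0 to 1. Log2 fold changes that turned sign on leaving out 1 library were those of genes not called. At 24 h these ran from -0.18 to 0.13 for Lrpprc, -0.43 to 0.081 for Pnpt1, -0.46 to 0.89 for Polrmt, -0.44 to 0.12 for Tefm, -0.50 to 0.53 for Tfam and -0.13 to 0.56 for Tfb2m. Lrpprc ran from -0.10 to 0.41 at 48 h, and between 48 h and 24 h Lrpprc ran from -0.092 to 0.42 and Tefm from -0.46 to 0.10. In EpiSCs the ranges were -0.11 to 0.015 for Tefm and -0.0636 to 0.20 for Tfb2m. In telogen they were -0.99 to 0.23 for Lrpprc, -0.42 to 0.15 for Polrmt and -0.68 to 0.48 for Supv3l1, and in the long-term pair -0.22 to 0.091 for Pnpt1, -0.92 to 0.77 for Slirp, -0.39 to 1.65 for Tfam and -0.32 to 0.13 for Tfb2m.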
